A study of Saccharomyces cerevisiae with 2 samples.

Results

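The 3′-terminal part of the yeast 35S pre-rRNA was examined for RNA crosslinked to Pol5, an assembly factor of both ribosomal subunits. It consists of domain VI of the 25S rRNA, taken as nucleotides 2996 to 3396 of RDN25-2, and of the 3′ external transcribed spacer (3′ ETS, ETS2-2) that follows it. Both were chosen by their position in the deposited coverage, and together they held 612 of the 6858 nucleotides of the transcript, 401 in domain VI and 211 in the 3′ ETS. Crosslinking and analysis of cDNA (CRAC) had been performed on exponentially growing *S. cerevisiae* of the BY4741 background, irradiated in culture at 254 nm. The Pol5-HTP library came from cells in which Pol5 carried a C-terminal His-TEV-ProteinA tag at its genomic locus, and the control library (WT) from wild-type cells. The title of the control reads WT-HTP, but its genotype label reads wild type, and it was taken as untagged. There was 1 library per group. The variation between cultures is thus unknown, and the libraries were compared without a test.

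In CRAC, RNA bound by UV light to a tagged protein is trimmed by RNases, purified with the protein and sequenced, so that reads pile up where the protein touches RNA. An untagged control shows the RNA that is recovered without the bait. Domain VI contains the sarcin-ricin loop, a highly conserved hairpin that contacts the translational GTPases and is the target of the toxins that give it its name. The domain ends at the 3′ end of the mature 25S rRNA. Its sequence is part of the mature rRNA and of all pre-rRNAs that lead to it, so hits in domain VI from mature and precursor molecules cannot be told apart. The 3′ ETS is found in precursors only. It is cleaved early, during transcription, by the RNase III enzyme Rnt1 within a stem-loop, and the remaining nucleotides are trimmed by exonucleases such as Rex1.

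Values are hits per 1000000 reads at each nucleotide (normalized hits), as the authors scaled them. In both libraries 100% of the values were whole multiples of 1 step, within 0.001 reads, which gave 463950 reads as the total behind the WT coverage and 1755048 behind that of Pol5-HTP. These differ from the sums of the deposited RNA class counts, 1092199 and 1073688 reads. Coverage and classes were not counted alike, since the total behind the Pol5-HTP coverage exceeds its class total. The rRNA class held 39.3% of the class reads in WT and 49.6% in Pol5-HTP. Scaling the coverage to the class totals raises the hits on the 35S pre-rRNA in Pol5-HTP by more than this share rises. Scaling to the class totals would multiply each ratio of Pol5-HTP over WT by 3.85 before anything is added, and directions that depend on this are named as such. Ratios were taken after 10 normalized hits had been added to both values, except where a ratio is given with an interval. A nucleotide with 0 reads corresponds to an upper limit of 3 reads, which is 6.47 normalized hits for WT and 1.71 for Pol5-HTP. Intervals and these limits cover counting error only, not variation between cultures, and they treat each read as an independent molecule. Identical reads had been collapsed by the authors, and whether copies of a molecule remained is not known. The intervals also do not allow for the choice of a nucleotide as the highest or lowest of the domain.

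The stretches on which the values below turn are shown as they stand in the coverage, 5′ to 3′ in the sense of the RNA, with T for U. The first surrounds the sarcin-ricin loop (nucleotides 3016 to 3040 of the 25S rRNA, its conserved motif in capitals), the second is the window with the highest ratio of Pol5-HTP over WT (3071 to 3095), and the third is the highest peak of the domain in both libraries (3295 to 3355, with the part above 50% of the summit in both libraries in capitals). The fourth joins the last 20 nucleotides of the 25S rRNA to the first 12 of the 3′ ETS in capitals, and the fifth holds the first 60 nucleotides of the 3′ ETS with the stretch covered by Pol5-HTP reads in capitals.
Sarcin-ricin loop: aacttagtaCGAGAGGaacagttca
Highest ratio: TCAGGCATTGCCGCGAAGCTACCAT
Shared peak: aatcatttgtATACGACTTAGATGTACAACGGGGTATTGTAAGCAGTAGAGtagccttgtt
25S 3′ end: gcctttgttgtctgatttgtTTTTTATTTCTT
3′ ETS: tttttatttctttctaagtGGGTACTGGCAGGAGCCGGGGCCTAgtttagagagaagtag

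Domain VI took up a smaller part of the Pol5-HTP coverage than of the WT coverage. It makes up 5.85% of the length of the 35S pre-rRNA and held 12.9% of the WT hits on this transcript, but 4.60% of the Pol5-HTP hits. These shares do not depend on how the libraries are scaled. They do depend on the rest of the transcript, where the 5′ ETS and ITS2 took larger shares in Pol5-HTP, and among hits on the 25S rRNA alone domain VI held 20.2% in WT and 8.56% in Pol5-HTP. WT had a mean coverage of 2345 normalized hits over the domain, and Pol5-HTP one of 930, so that the log2 ratio amounted to -1.32. With the class totals the log2 ratio was 0.61, so the direction of this difference changed with that scaling. That scaling, however, raises hits on the 35S pre-rRNA by more than the share of the rRNA class rises. With the coverage as deposited, the remaining 2995 nucleotides of the 25S rRNA had a log2 ratio of 0.10 and the 18S rRNA one of -0.93. All 401 nucleotides of domain VI had hits in both libraries. WT values lay between 10.8 and 17528 normalized hits, and Pol5-HTP values between 30.8 and 5943.

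**Figure D1:**
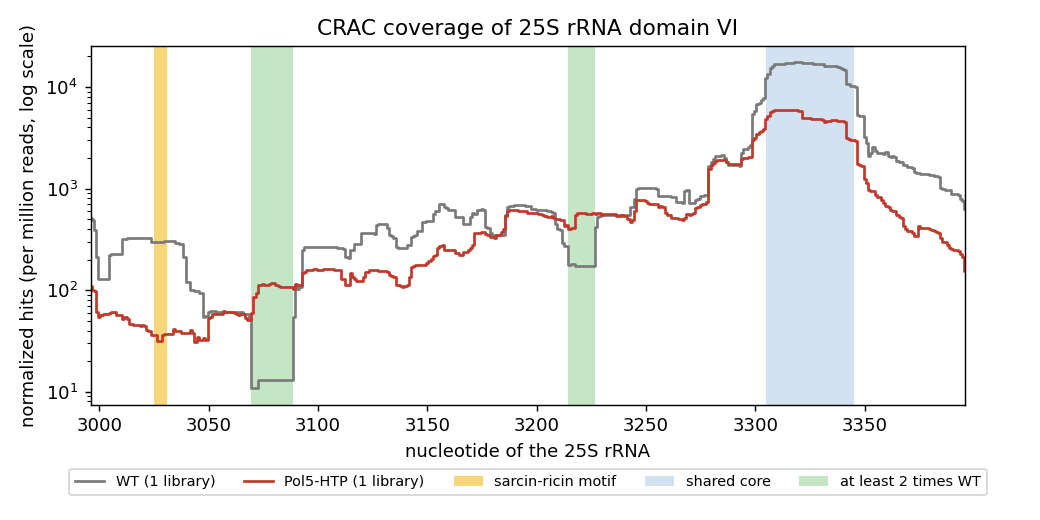
Normalized hits (log scale) at each nucleotide of 25S rRNA domain VI in the WT (grey) and Pol5-HTP (red) libraries, 1 library each; shaded are the sarcin-ricin motif, the stretches at least 2 times WT and the core of the shared peak. Both libraries rise to the same peak between nucleotides 3305 and 3345, Pol5-HTP lies below WT over most of the domain with the coverage as deposited, and it lies above WT from 3070 to 3088 and from 3215 to 3226.

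Most nucleotides of the domain that differed by a factor of 2 were lower in Pol5-HTP. At most 0.5 times WT were found at 192 of the 401 nucleotides, or 47.9%, where 24.5% of all nucleotides of the 35S pre-rRNA passed this limit. At least 2 times WT were found at 31 nucleotides, or 7.73%, against 36.0% over the whole transcript. In the rest of the 25S rRNA 28.2% of the nucleotides were higher by this rule and 25.2% were lower. The 18S rRNA had 18.7% higher and 39.6% lower, and the 5.8S rRNA 1.90% higher and 10.1% lower. In the 5′ ETS, ITS1 and ITS2 95.9%, 99.4% and 96.6% were higher and 0 nucleotides lower, which weighs on the share over the whole transcript. With the class totals the split turned, with 194 nucleotides of domain VI higher (48.4%) and 2 lower, and over the whole transcript 69.7% were then higher and 0.714% lower. Under both scalings the share of higher nucleotides was thus smaller in domain VI than over the whole transcript. The 31 higher nucleotides formed 2 runs, from 3070 to 3088 and from 3215 to 3226. The longest of the 5 runs of lower nucleotides lay at the 2 ends of the domain, from 2996 to 3047 and from 3304 to 3396.

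In 16 consecutive windows of 25 nt, of which the last held 26, the ratio of Pol5-HTP over WT was between 0.181 and 1.91. It was above 1 in 3 windows and at or below 0.5 in 8. The 3 lowest values were 0.181 for nucleotides 3021 to 3045, 0.245 for 2996 to 3020 and 0.285 for 3371 to 3396. The 3 highest were 1.91 for nucleotides 3071 to 3095, 1.17 for 3221 to 3245 and 1.16 for 3196 to 3220. The lowest and the highest window of the domain were thus separated by only 25 nt. Among all 3372 windows of this length along the 25S rRNA, 92 had a lower ratio than the lowest and 819 a higher one than the highest. These windows overlap and include shifted windows within domain VI itself. By single nucleotides, ratios of at least 2 were more frequent in the rest of the 25S rRNA, at 28.2% against 7.73% in domain VI. With the class totals the windows ran from 0.608 to 5.89 and 14 of the 16 were above 1. The first 50 nt of the domain had the 2 ratios below 1.

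**Figure D2:**
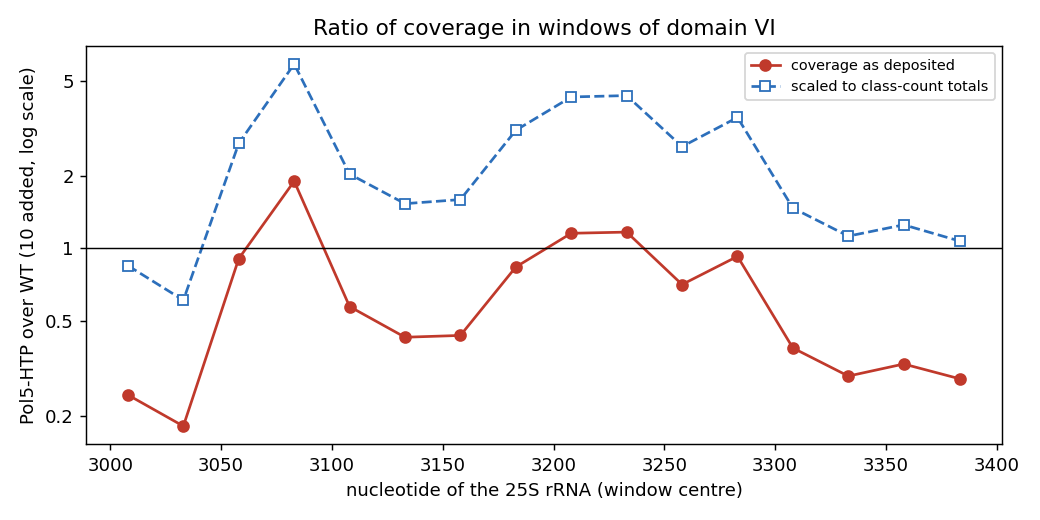
Ratio of mean coverage, Pol5-HTP over WT with 10 normalized hits added (log scale), in the 16 windows of domain VI, plotted at the window centre; filled points use the coverage as deposited and open squares the class-count totals. The lowest window (0.181) holds the sarcin-ricin loop and the highest (1.91) begins 50 nt further 3′. The scalings differ by a single factor apart from the 10 added, so the order along the domain can hardly change and only the position relative to 1 moves.

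The sarcin-ricin loop was sparsely covered in the Pol5-HTP library. It was located by its conserved motif CGAGAGG on the RNA strand, which occurred once in the 25S rRNA, at nucleotides 3025 to 3031, and at 2 of the 6852 possible positions of the 35S pre-rRNA (0.0292%). WT had 139 or 140 reads over the motif and Pol5-HTP between 55 and 65. The ratio of the mean normalized hits was 0.145, and 0.489 with the class totals. The lowest ratio of the domain at a single nucleotide was at 3027, within the motif, where WT had 299.6 and Pol5-HTP 31.3 normalized hits. Their ratio was 0.105 (95% exact binomial interval 0.0751 to 0.144). The lowest Pol5-HTP value of the whole domain, 30.8 normalized hits or 54 reads, lay 3′ of the loop at nucleotide 3044. The surrounding run of lower nucleotides, from 2996 to 3047, had a WT mean of 256 and a Pol5-HTP mean of 47.6 normalized hits.

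Further 3′ the order of the libraries changed. Over the 22 nt from 3048 to 3069 the ratio was between 0.643 and 1.03. From nucleotide 3070 to 3088 the WT coverage was 5 or 6 reads, the lowest of the domain, whereas Pol5-HTP had between 105 and 207 reads. The means were 12.6 and 106 normalized hits, and the ratio was 5.15. At nucleotide 3079, where the ratio was highest, WT had 6 reads and Pol5-HTP 207, or 12.9 and 118 normalized hits. The interval of this ratio, 9.12 with nothing added, was wide (95% exact binomial interval 4.12 to 25.1) because of the few WT reads. The level itself was low, since the Pol5-HTP median over domain VI was 367 normalized hits. The run from nucleotide 3215 to 3226 had a WT mean of 175 and a Pol5-HTP mean of 528 normalized hits, with a ratio of 2.90. Here WT had between 81 and 83 reads and Pol5-HTP between 707 and 1015. Both runs coincided with dips of the WT profile, at 3070 to 3088 and at 3215 to 3226, and the Pol5-HTP profile had no dip of that depth there. Between the loop region and the start of the WT peak, over nucleotides 3046 to 3280, coverage made up 10.7% of the WT hits of the domain and 21.3% of the Pol5-HTP hits.

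The domain had 1 site in each library, where a site is a run at or above 10% of the library's maximum over the 35S pre-rRNA, with runs up to 10 nt apart joined. Both were the same peak near the 3′ end of the domain. In WT it ran from nucleotide 3281 to 3364 with its summit at 3318, and in Pol5-HTP from 3299 to 3346 with its summit at 3311. At 3318 WT had 17528 normalized hits (8132 reads) and Pol5-HTP 5909 (10371 reads), a ratio of 0.337 (95% exact binomial interval 0.327 to 0.347) that became 1.30 with the class totals. The summit reached 89.4% of the maximum of the WT library and ranked 3 among its 18 sites by height. That of Pol5-HTP reached 28.9% of its maximum and ranked 7 among 18. The part above 50% of the summit was 42 nt long in WT and 47 nt in Pol5-HTP, and 41 nt, from 3305 to 3345, belonged to both, 97.6% of the WT core and 87.2% of the Pol5-HTP core. Within these 41 nt the ratio was between 0.284 and 0.391, and between 1.09 and 1.501 with the class totals. Which library was higher at the peak thus changed with the class totals, a scaling with the limits given above. The ratio varied little along the core, which a single scaling factor can hardly alter. The peak held 83.6% of the WT hits of domain VI over the WT site and 61.4% of the Pol5-HTP hits over the Pol5-HTP site. These spans differ, with 84 nt in WT and 48 nt in Pol5-HTP. Over the same span, nucleotides 3296 to 3396, the shares were 84.8% in WT and 70.7% in Pol5-HTP.

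The likeness of the profiles can be given as a correlation across nucleotides, which are not independent and share reads. Over the 401 nucleotides of domain VI Pearson's r between the libraries was 0.972 and Spearman's rho 0.853. Outside the WT site, over 317 nucleotides, the values were 0.638 and 0.708. In the rest of the 25S rRNA, with 2995 nucleotides, they were 0.243 and 0.569, and in the 18S rRNA, with 1800, 0.817 and 0.814. The peak thus carries much of Pearson's r in domain VI.

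The 2 steepest rises and the 2 steepest falls of the shared peak lay at the same bonds in both libraries, although its limits as a site differed. The rises were between C3298 and A3299, where coverage grew by 1241 reads in WT and 1735 in Pol5-HTP, and between T3304 and A3305, with 2114 and 1664 reads. These were the 2 largest rises of the domain in either library, in a different order. The third was between T3306 and A3307 in WT, with 967 reads, and between C3278 and A3279 in Pol5-HTP, with 1452 reads against 367 in WT. The 2 largest falls were between T3341 and A3342, with 1800 reads in WT and 2393 in Pol5-HTP, and between T3346 and A3347, with 2131 and 2089 reads. The third fall of WT, between C3349 and C3350, amounted to 907 reads, against 770 in Pol5-HTP. That of Pol5-HTP, between C3321 and A3322, amounted to 1494 reads against 132 in WT. The profiles also differed in shape at the 5′ side of the WT site. There the ratio was 0.908 at nucleotide 3281, against 0.284 to 0.391 within the core shared by both libraries.

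Of these largest steps all but that between C3349 and C3350 lay between a pyrimidine and an A. The dinucleotides TA and CA made up 47 of the 400 bonds of the domain, or 11.8%. They took 56.0% of all reads gained from one nucleotide to the next in WT and 56.0% in Pol5-HTP, and 48.8% and 50.5% of all reads lost. RNase A, a component of the RNase mixture used for trimming, cuts 3′ of pyrimidines. Before nucleotide 3281, where the WT site begins, the same dinucleotides were 11.6% of the bonds and took 36.0% of the gains in WT and 50.6% in Pol5-HTP, but 22.1% and 14.0% of the losses. Whether the sequence preference of the RNases sets the edges was not tested.

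At the 3′ end of the 25S rRNA coverage ended abruptly in both libraries. The last nucleotide, 3396, had 295 reads in WT and 269 in Pol5-HTP, or 636 and 153 normalized hits. Nucleotide 1 of the 3′ ETS had 31 and 36 reads, or 66.8 and 20.5 normalized hits. Reads on the first spacer nucleotide were thus 10.5% of those on the last mature nucleotide in WT (95% Clopper-Pearson interval 7.25% to 14.6%) and 13.4% in Pol5-HTP (9.55% to 18.04%), which differed by less than the counting error. Nucleotide 2 had 3 reads in WT and 1 in Pol5-HTP. Neither library had reads from nucleotide 3 to 19. As the fourth sequence above shows, the first 5 nucleotides of the 3′ ETS are T. Reads that extend into the spacer and reads of mature 25S rRNA with added U residues cannot be told apart at these positions.

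**Figure D3:**
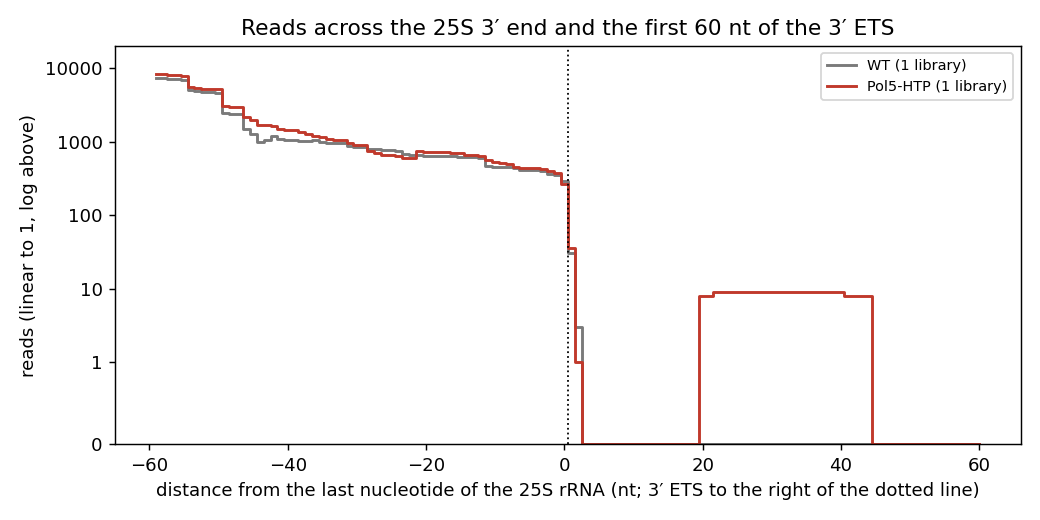
Reads in the WT (grey) and Pol5-HTP (red) libraries, 1 library each, against the distance in nt from the last nucleotide of the 25S rRNA, with the 3′ ETS right of the dotted line; the vertical axis is linear to 1 read and logarithmic above. Reads decline from 295 and 269 on the last 25S nucleotide to 0 at nucleotide 3 of the 3′ ETS in both libraries, and only Pol5-HTP has a second stretch, of 8 or 9 reads at nucleotides 20 to 44.

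The 3′ ETS held hits at 2 of its 211 nucleotides in WT and at 27 in Pol5-HTP. By contrast all 700 nucleotides of the 5′ ETS, all 361 of ITS1 and all 232 of ITS2 had hits in Pol5-HTP, and in WT 641, 265 and 219 of them did. The 3′ ETS accounted for 0.001002% of the WT hits on the transcript and for 0.00180% of the Pol5-HTP hits. Besides the first 2 nucleotides, Pol5-HTP covered a stretch of 25 nt, from nucleotide 20 to 44, with 8 or 9 reads, or 4.56 to 5.13 normalized hits. Coverage rose by 8 reads at nucleotide 20 and by 1 at nucleotide 22, and it fell by 1 at nucleotide 41 and by 8 at nucleotide 45. The reads therefore began and ended at nearly the same nucleotides. From nucleotide 45 to 211 there were 0 reads in both libraries.

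In WT the stretch from nucleotide 20 to 44 had 0 reads, but with the coverage as deposited this is no difference that the depth could show. The 9 reads of Pol5-HTP would correspond to 2.38 reads in WT at equal normalized hits, and the limit of 6.47 normalized hits that 0 reads allow in WT is above the Pol5-HTP value. With the class totals, a scaling with the limits given above, the order is the opposite. The 9 reads are then 8.38 per 1000000 reads in Pol5-HTP and the limit in WT is 2.75. Both comparisons take the 9 reads as independent, which is not known for reads with nearly the same ends. In the minimum free energy fold predicted for the first 60 nt of the 3′ ETS, the stretch lay in the apical part of a single stem-loop of -29.8 kcal/mol, enclosed by 14 base pairs between nucleotides 5 to 18 and 46 to 59. Of its 25 nucleotides 18 were paired with one another. These 14 pairs were also enclosing it when the first 80 or all 211 nucleotides were folded. The fold is a prediction for naked RNA and was not measured.

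The end of the 25S rRNA differed in this respect from the other ends of the mature rRNAs in the Pol5-HTP library. Reads on the first spacer nucleotide were 97.6% of those on the first nucleotide of the 25S rRNA (95% Clopper-Pearson interval 96.1% to 98.7%) and 96.7% of those on the last nucleotide of the 5.8S rRNA. At the 5′ end of the 5.8S rRNA they were 70.8%, at the 5′ end of the 18S rRNA 66.9% (59.2% to 74.0%) and at its 3′ end 97.0%, the last with 33 reads on the mature side. The interval at the 25S 3′ end, 9.55% to 18.04%, overlapped none of these. In WT the values were 60.3% at the 5′ end of the 25S rRNA, 38.6% at the 5′ end of the 5.8S rRNA, 14.3% at its 3′ end (7.61% to 23.6%) and 2.44% at the 5′ end of the 18S rRNA. WT had 1 read on each side of the 18S 3′ boundary, too few for a share. The contrast depended in size on the distance considered. With means over 10 nt on each side, the Pol5-HTP values were 32.3% and 50.9% at the 5′ and 3′ ends of the 18S rRNA, 34.3% and 69.4% at those of the 5.8S rRNA and 45.0% at the 5′ end of the 25S rRNA, against 0.870% at its 3′ end.

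**Figure D4:**
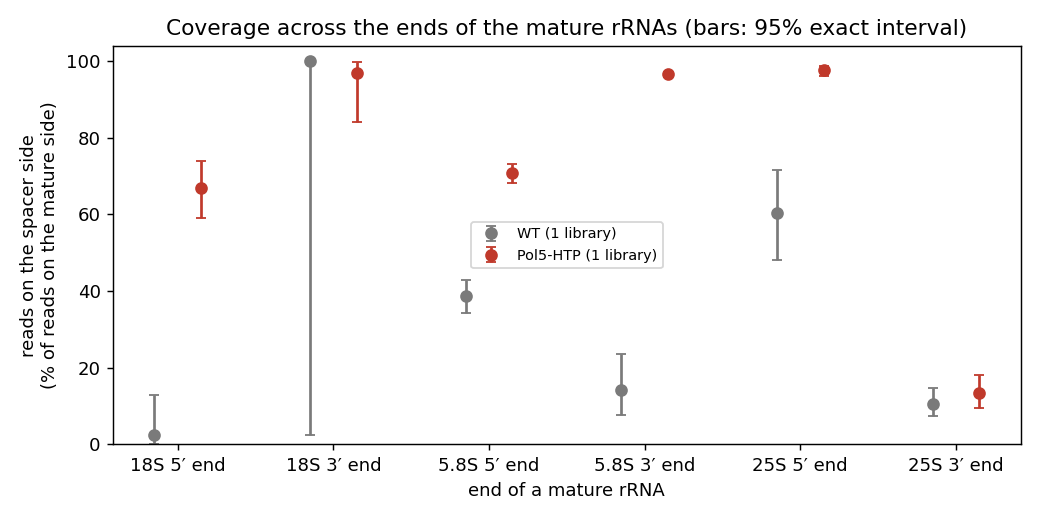
Reads on the first spacer nucleotide as a percentage of reads on the adjoining mature nucleotide at the 6 ends of the 18S, 5.8S and 25S rRNAs in WT (grey) and Pol5-HTP (red), 1 library each; bars are 95% Clopper-Pearson intervals and cover counting error only. At the 25S 3′ end the libraries lie close together at 10.5% and 13.4%, whereas Pol5-HTP lies between 66.9% and 97.6% at the other ends; the WT value at the 18S 3′ end rests on 1 read.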

How the data were processed

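Data were from CRAC of 1 Pol5-HTP and 1 WT library. Duplicate reads were collapsed by the authors, and alignment was by Bowtie 2 following Flexbar. The submitters' processing notes give Bowtie2 2.3.4.2, another version than the methods. The coverage signal deposited by the authors gives hits per 1000000 reads at each nucleotide of RDN37-2. The total used and the handling of reads from both rDNA copies are not given in the sources used here. The deposited counts give reads in each of 7 RNA classes, unnormalized.

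Of 6862 rows listed, 4 repeated a neighbouring nucleotide with the same values and were dropped. Reads were recovered from the step between values. No genome release is named, so positions are those of the deposited features. Means, ratios, sites, steps and intervals came from Python 3.11.15 (with scipy 1.17.1, numpy 2.4.6 and, for plots, matplotlib 3.10.9), and the fold from RNAfold 2.7.2. The code was tested on 20 simulated profiles of 4000 nt, and the planted totals, sites and ends were recovered in 20.

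Regions, rules and alternatives were chosen with earlier results of these data known. The regions named are all sites in the domain, the extreme windows, nucleotides and steps, the sarcin-ricin motif, the ends of mature rRNAs and each covered stretch of the 3′ ETS. The 2 runs above WT, the fold and the dinucleotides were added after the values were seen.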

Additional observations from a re-analysis of the deposited data

How the results depend on the processing

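The log2 ratio of domain VI, -1.32, was 0.61 and so of the opposite sign with the class totals. It stayed negative under the other alternatives, at -1.47 with equal hits on the 35S pre-rRNA, -0.55 with the median ratio over the 18S rRNA, -1.33 with 1 and -1.25 with 100 normalized hits added, -0.57 with the median over the region, -1.30 without 30 nt at each edge and -0.71 without the WT site. The share of 35S hits in domain VI was larger in WT under each alternative. It was 12.2% in WT and 4.45% in Pol5-HTP without 30 nt at each edge, 20.2% and 8.56% among 25S hits, 13.3% and 6.49% among hits on mature rRNA, and 2.36% and 1.19% without the WT site in region and total, which was added after seeing the data. The nucleotides at least 2 times WT numbered 194 with the class totals, 9 with 100 added and 18 at a fold of 4, instead of 31. In this order they were 48.4%, 2.24% and 4.49% of domain VI, against 69.7%, 27.8% and 25.6% of the whole transcript. The nucleotides at most 0.5 times WT numbered 2 with the class totals, 73 with the 18S median and 37 at a fold of 4, instead of 192. They were 0.499%, 18.2% and 9.23% of domain VI, against 0.714%, 9.24% and 5.38% of the whole transcript. The WT peak was split into 2 sites without joining, WT had 2 sites in the domain at a threshold of 5%, and Pol5-HTP had 0 at 30%. Requiring 10 reads moved the last covered nucleotide of the 3′ ETS to 1 in both libraries. Over 5 nt on each side of the 25S 3′ end the spacer had 1.88% of the mature coverage in WT and 1.94% in Pol5-HTP, and over 10 nt 0.854% and 0.870%. No paired analysis was possible because each group had 1 library. Depth limits the 3′ ETS, where the Pol5-HTP stretch is below the limit of WT with the coverage as deposited and above it with the class totals.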

Other observations

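The preference of coverage steps for TA and CA was compared between domain VI and the rest of the transcript, as a description chosen after the values were seen. In the rest of the 25S rRNA these dinucleotides were 10.1% of the bonds and took 37.8% of the reads gained in WT and 39.6% in Pol5-HTP. For reads lost the values were 21.3% in WT and 10.5% in Pol5-HTP, so the latter was close to the share of bonds. In the 18S rRNA, where TA and CA were 11.8% of the bonds, they took 45.2% and 41.6% of the gains and 21.3% and 12.9% of the losses. The losses of domain VI, with 48.8% in WT and 50.5% in Pol5-HTP, include the 2 steep falls of the shared peak.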
